A study of Mus musculus with 15 samples.

Results

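The genes described here are 41 genes of blood and lymphatic endothelium and of the factors that act on it, out of 51826 genes deposited. They were listed by symbol and role, but with earlier results of these data known. They comprise 7 ligands, 30 blood vessel genes and 4 lymphatic genes. RNA-seq of mouse mammary tissue was deposited for 15 libraries from 13 mice of strain FVB, which the series' design text gives as an FVB/129 background. The groups were 3 Trim24COE carcinosarcomas (mice 64, 567 and 897), 3 Trim24COE carcinomas (mice 89, 273_5 and 3956), 4 control mammary glands of mice that carry Cre without the Trim24 transgene (mice 133, 392, 417_3 and 517_3) and 3 non-TRIM24 carcinomas that arose spontaneously (mice 219, FVB001 and FVB002), whose genotype the labels give as unknown. In Trim24COE mice, Cre under the MMTV promoter, which is active in mammary epithelium, switches on a Flag-tagged Trim24 transgene of 1 founder line, so vessel cells are not the cells meant to carry it. Cre is thus shared by the Trim24COE tumors and the control glands, the labels give no age, and the 2 pathologists of the study differed on the class of tumors 89, 567 and 3956. All first libraries of these tumors and of the glands are in sequencing batch 1. The non-TRIM24 tumors and a repeat library each of gland 133 and tumor 3956 are in batch 2.

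Blood vessels are lined by endothelial cells, which hold together through junction proteins and read growth signals through receptors. VEGF ligands act through the receptors Kdr and Flt1 and the coreceptors Nrp1 and Nrp2, whereas angiopoietins act through Tek, and apelin through Aplnr. In growing vessels, endothelial cells at the tip of a sprout make secreted proteins such as Esm1 and Apln, whereas capillaries of fat and gland carry proteins such as Cd300lg and Gpihbp1. Lymphatic vessels depend on Vegfc and its receptor Flt4.

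Values are TPM, a share of transcripts corrected for their length, so that levels of different genes can be compared within a library. TPM have the same total in each library and do not show how many reads stood behind a value. Together the 41 genes held between 0.0454% and 0.203% of all TPM. Fitted differences are on the log2(TPM + 1) scale, which understates changes of low genes, and are given with their standard error (SE) and with limma p-values adjusted by the Benjamini-Hochberg method over all genes tested. In fits without the non-TRIM24 tumors, these p-values measure the spread between mice within the groups compared. Where all Trim24COE tumors were compared with glands, carcinosarcomas and carcinomas were fitted as a single group. The spread in that fit thus also holds the difference between these tumor classes. In fits with them, the repeat libraries entered as if from further mice. Those p-values thus also hold the spread between libraries of the same mouse. In bulk tissue, fewer cells of a type and less RNA per cell cannot be told apart.

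The tissue differed in more than its vessels. The 12 adipocyte genes summed to between 132.8 and 17310 TPM in the glands, being high in glands 133 and 392 and low in glands 417_3 and 517_3, to between 16.57 and 551.5 TPM in the Trim24COE tumors and to between 62.77 and 30060 TPM in the non-TRIM24 tumors. Adipoq, a hormone made by fat cells, was at 10.2 TPM in gland 417_3 and 1946 TPM in gland 392. The 11 epithelial genes summed to 384.7 to 1426 TPM in carcinosarcomas, 2886 to 6618 TPM in carcinomas and 1103 to 6742 TPM in glands. The 9 macrophage genes summed to 1439 to 3552 TPM in Trim24COE tumors and 381.9 to 939.9 TPM in glands. A separate list of 12 endothelial reference genes, which are not members, had a mean log2(TPM + 1) of 2.24 to 3.83 in the 6 tumors and 3.94 to 4.09 in the 4 glands. The part of these tissue differences in the results that follow was not tested. Where a fit with the fat or endothelial level is given, it shows how the values move with that covariate. The endothelial level did not overlap between the 6 tumors and the 4 glands. A fit with it therefore cannot separate that level from the group.

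In the 6 Trim24COE tumors, 3 members rose against the 4 control glands and 12 fell, whereas 25 did not pass the test and Prox1, a lymphatic transcription factor, was too low to be tested. Those that rose were the ligands Apln and Pgf and the secreted sprout product Esm1. The 12 that fell were the ligand Angpt1 and 11 blood vessel genes: Kdr, Tek, Ptprb, Robo4, S1pr1, Adgrl4, Pecam1, Sox17, Erg, Cd300lg and Vwf. Of all 15196 genes tested, 17.1% were called, 7.96% as higher and 9.13% as lower. The fitted difference lay below 0 for 26 of the 30 blood vessel genes, with a median of -1.06 beside -0.04 over all genes tested. The median of the 7 ligands was 0.48. The comparisons of all Trim24COE tumors, of each tumor class and of the non-TRIM24 tumors with glands use the same 4 glands, so their values are given side by side and not as separate evidence.

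**Figure D1:**
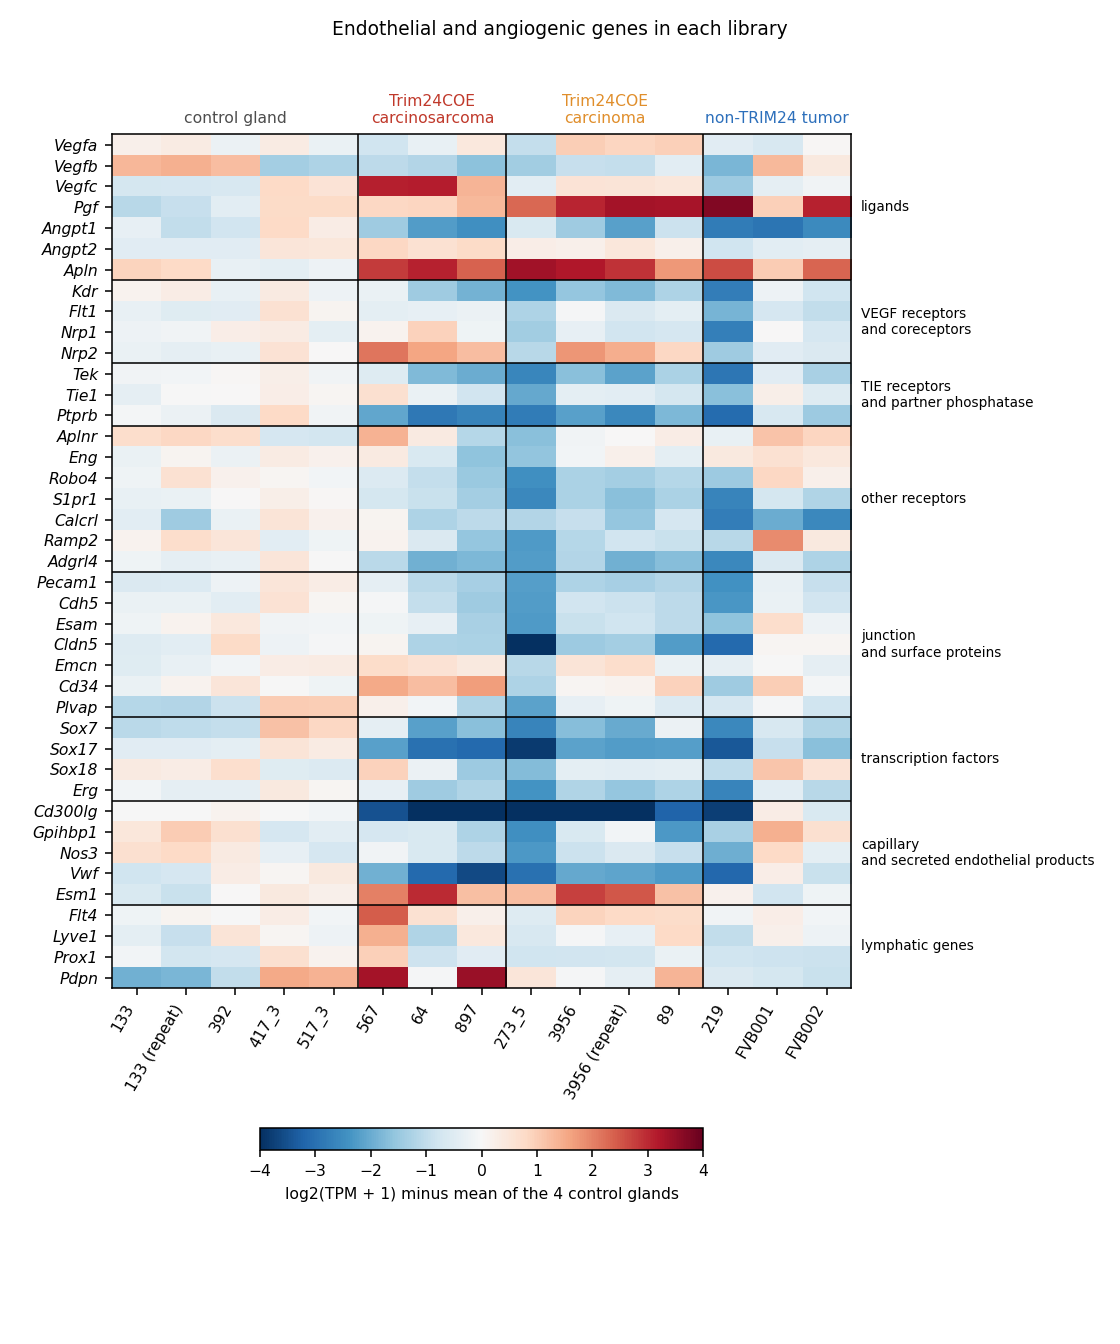
Each row is one of the 41 members, grouped by role, and each column one of the 15 libraries, named by mouse. Color gives log2(TPM + 1) minus the mean of the 4 first libraries of the control glands, from -4 (blue) to 4 (red), with values beyond these limits drawn at the limit. Apln is red in all 6 Trim24COE tumors, and Cd300lg, Sox17, Vwf and Ptprb are blue in all of them, whereas FVB001 is pale for most vessel genes.

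Among the ligands, Apln, which binds the receptor Aplnr, changed most. It stood at 6.29, 2.14, 1.97 and 2.38 TPM in glands 133, 392, 417_3 and 517_3. Carcinosarcomas 64, 567 and 897 had 31.98, 25.9 and 19.1 TPM, and carcinomas 89, 273_5 and 3956 had 11.9, 38.8 and 34.9 TPM. Every tumor thus lay above every gland, also above the highest gland, 133. The fitted difference was 2.75 (SE 0.38, adjusted p = 0.00123), and the exact permutation test (two-sided) gave p = 0.00476, which is 1 of 210 regroupings and the smallest p this layout allows. Aplnr itself lay between 4.69 and 14.5 TPM in glands and between 1.94 and 24.0 TPM in tumors, with a fitted difference of -0.16 (SE 0.58, adjusted p = 0.881).

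Pgf, the placental growth factor, a ligand of Flt1, had 4.20, 7.39, 18.3 and 18.4 TPM in glands 133, 392, 417_3 and 517_3. In carcinosarcomas 64, 567 and 897 it had 19.6, 19.0 and 26.7 TPM, barely above glands 417_3 and 517_3. Carcinomas 89, 273_5 and 3956 had 109, 54.2 and 93.4 TPM, well above every gland. Over all 6 tumors the fitted difference was 1.94 (SE 0.59, adjusted p = 0.0437), and the exact permutation test gave p = 0.0286. Of the 10 fits that leave out 1 mouse, 2 kept the call.

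Angpt1, the ligand that activates Tek, fell. Its levels were 8.65, 6.23, 20.1 and 14.02 TPM in glands 133, 392, 417_3 and 517_3, against 1.58, 3.58 and 1.23 TPM in carcinosarcomas 64, 567 and 897 and 5.79, 6.98 and 3.52 TPM in carcinomas 89, 273_5 and 3956. Only carcinoma 273_5 reached the range of the glands, whose lowest value was that of gland 392. The difference was -1.50 (SE 0.43, adjusted p = 0.0366). Leaving out 1 mouse kept the call in 3 of 10 fits. Angpt2, which competes with Angpt1 at Tek, lay at 5.35 to 11.2 TPM in glands and 9.04 to 14.7 TPM in tumors, with a difference of 0.48 (SE 0.28, adjusted p = 0.268).

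Vegfa, the main growth factor of blood vessels, did not pass the test in any of the comparisons. It stood at 101, 74.6, 110.3 and 72.7 TPM in glands 133, 392, 417_3 and 517_3. Tumors spread to both sides, with 72.4, 50.4 and 119 TPM in carcinosarcomas 64, 567 and 897 and 171, 45.5 and 177 TPM in carcinomas 89, 273_5 and 3956. Thus 3 tumors were above all glands and 3 below all glands, and the fitted difference was 0.06 (SE 0.41, adjusted p = 0.941). Vegfb split the glands as the adipocyte genes did, with 155 and 145 TPM in glands 133 and 392 but 23.1 and 25.3 TPM in glands 417_3 and 517_3. Its range in the 6 tumors was 18.8 to 44.9 TPM, overlapping the latter pair, and the difference of -1.10 (SE 0.55) had an adjusted p of 0.191. Without glands 417_3 and 517_3 it was -2.39 (adjusted p = 0.00187).

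Vegfc, the lymphatic growth factor, was high in carcinosarcomas. It had 56.7, 55.2 and 15.7 TPM in carcinosarcomas 64, 567 and 897, and 7.91, 3.86 and 8.63 TPM in carcinomas 89, 273_5 and 3956. The glands had 2.97, 3.18, 10.4 and 8.58 TPM in mice 133, 392, 417_3 and 517_3. All carcinosarcomas were above all glands, whereas the carcinomas overlapped them. For the 6 tumors together the difference was 1.36 (SE 0.71, adjusted p = 0.208).

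**Figure D2:**
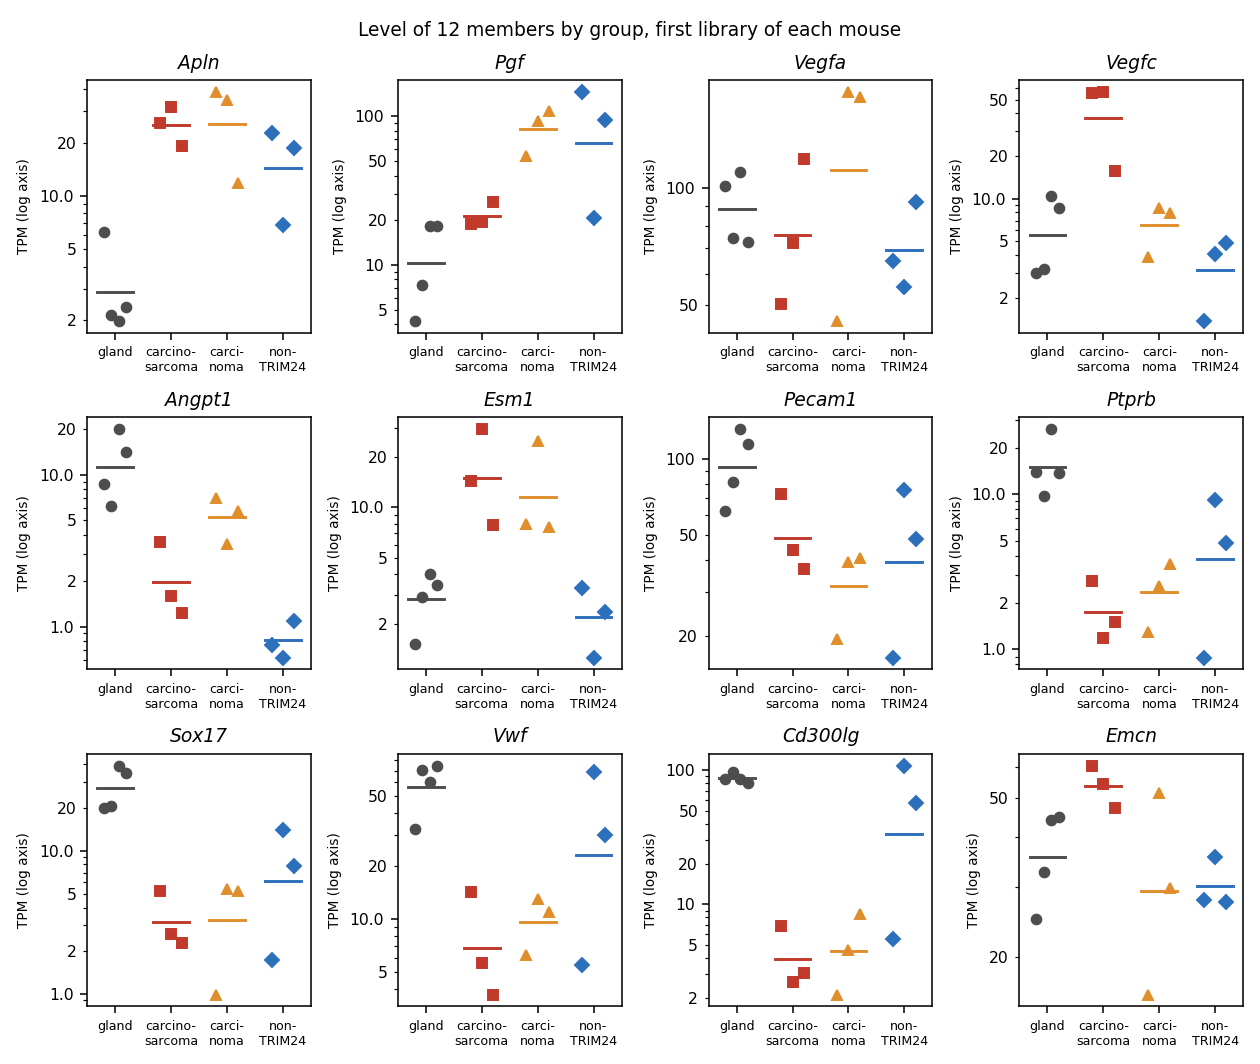
Level of 12 members in TPM on log axes, 1 point for the first library of each mouse, with the bar at the mean of log2(TPM + 1) turned back to TPM. Apln and Esm1 are higher in every Trim24COE tumor than in every gland, Ptprb, Sox17, Vwf and Cd300lg are lower in every one, Vegfc is high in carcinosarcomas, and Vegfa and Emcn overlap between groups.

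Of the 4 VEGF receptors and coreceptors, 1 fell. Kdr, the main VEGF receptor of blood vessels, had 24.5, 18.2, 29.2 and 19.3 TPM in glands 133, 392, 417_3 and 517_3, and 7.76, 18.3 and 5.37 TPM in carcinosarcomas 64, 567 and 897. Carcinomas 89, 273_5 and 3956 had 8.86, 3.46 and 7.09 TPM. Tumor 567 was the exception that reached the range of the glands, and the difference was -1.46 (SE 0.37, adjusted p = 0.0213). Flt1 lay at 14.1 to 30.5 TPM in glands and 7.83 to 19.0 TPM in tumors, with a difference of -0.43 (adjusted p = 0.336). Nrp1 differed by -0.25 (adjusted p = 0.692). Nrp2 was above all glands in 5 of 6 tumors, the exception being tumor 273_5 at 4.67 TPM, and differed by 1.07 (SE 0.55, adjusted p = 0.199), or by 1.51 (adjusted p = 0.0103) without that tumor. That tumor was singled out by its value, and the other fits that leave out a mouse are not given here for Nrp2.

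In the TIE system, the receptor Tek and the phosphatase Ptprb, which acts on Tek, both fell, and both were lower in every tumor than in every gland. Tek had 10.3, 11.7, 13.5 and 10.2 TPM in glands 133, 392, 417_3 and 517_3 and 1.03 to 7.62 TPM in the tumors, where tumor 567 was the highest. Its difference was -1.64 (SE 0.36, adjusted p = 0.0123). Ptprb had 14, 9.77, 26.5 and 13.7 TPM in the same glands. In carcinosarcomas 64, 567 and 897 it had 1.19, 2.76 and 1.51 TPM, and in carcinomas 89, 273_5 and 3956 it had 3.56, 1.3 and 2.58 TPM. The highest tumor therefore lay well under the lowest gland, with a difference of -2.40 (SE 0.33, adjusted p = 0.00123). Tie1, a partner of Tek, had 15.4 to 24.3 TPM in glands and 4.02 to 31.3 TPM in tumors, and its difference of -0.59 (SE 0.42) had an adjusted p of 0.358.

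Of the 7 other receptors, 3 fell and 4 did not pass the test, while all 7 fitted differences were below 0. Adgrl4, an adhesion receptor of endothelium, had 21.7 to 38.2 TPM in glands and 4.92 to 12.2 TPM in tumors, a difference of -1.65 (SE 0.29, adjusted p = 0.00373). S1pr1, which reads sphingosine 1-phosphate and steadies vessels, had 26.5 to 39.1 TPM in glands and 4.66 to 19.95 TPM in tumors (-1.34, SE 0.34, adjusted p = 0.0218). Robo4, an endothelial guidance receptor, had 17.7 to 22.5 TPM against 2.79 to 13.4 TPM (-1.31, SE 0.34, adjusted p = 0.0231). None of these 3 overlapped between tumors and glands. Calcrl and Ramp2, which together form a receptor for adrenomedullin, differed by -0.83 (adjusted p = 0.0998) and -1.04 (adjusted p = 0.0986). Eng, a coreceptor for BMP ligands, differed by -0.66 (adjusted p = 0.266).

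Junction and surface proteins differed among themselves. Of the 7, Pecam1 fell, with 62.2, 81.1, 132 and 114 TPM in glands 133, 392, 417_3 and 517_3 against 43.9, 72.6 and 36.9 TPM in carcinosarcomas 64, 567 and 897 and 40.6, 19.6 and 39.4 TPM in carcinomas 89, 273_5 and 3956. Tumor 567 lay above the lowest gland, and the difference was -1.22 (SE 0.34, adjusted p = 0.0294). The junction proteins Cdh5, Esam and Cldn5 differed by -1.07, -1.005 and -1.70 with adjusted p of 0.0721, 0.0847 and 0.0914. Cldn5 ranged from 6.76 TPM in tumor 273_5 to 143 TPM in tumor 567, a wider spread than that of the glands, 91.2 to 222 TPM. Emcn, a sialomucin of capillaries and veins, had 24.98 to 44.7 TPM in glands and 16.1 to 60.3 TPM in tumors (0.15, adjusted p = 0.813). Cd34 and Plvap, a protein of capillary diaphragms, differed by 0.70 (adjusted p = 0.369) and -0.68 (adjusted p = 0.422). Without tumor 273_5, in which Cd34 was lowest at 18.3 TPM, Cd34 differed by 1.08 (adjusted p = 0.0462). That tumor was singled out by its value, and the other fits that leave out a mouse are not given here for Cd34.

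Among the transcription factors, Sox17, a factor of arterial endothelium, had 19.8, 20.6, 39.3 and 34.7 TPM in glands 133, 392, 417_3 and 517_3. The carcinosarcomas 64, 567 and 897 had 2.61, 5.23 and 2.27 TPM and the carcinomas 89, 273_5 and 3956 had 5.21, 0.98 and 5.36 TPM. No tumor came near the glands, and the difference was -2.74 (SE 0.39, adjusted p = 0.00133). Erg, an ETS family factor that maintains endothelial identity, had 9.05 to 15.9 TPM in glands and 1.48 to 9.20 TPM in tumors (-1.30, SE 0.36, adjusted p = 0.0296). Sox7 and Sox18, which are relatives of Sox17, differed by -1.46 (adjusted p = 0.115) and -0.54 (adjusted p = 0.469). Sox7 had 29.8 and 23.1 TPM in glands 417_3 and 517_3 and 5.52 and 6.10 TPM in glands 133 and 392, so it split the glands in the opposite sense to Vegfb.

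The capillary and secreted products held the member furthest below the glands and 1 member above them. Cd300lg, a receptor on capillary endothelium, had 86.7, 96.5, 86.4 and 80.5 TPM in glands 133, 392, 417_3 and 517_3, a narrow range. It fell to 2.65, 6.85 and 3.10 TPM in carcinosarcomas 64, 567 and 897 and to 8.52, 2.11 and 4.53 TPM in carcinomas 89, 273_5 and 3956. The difference was -4.09 (SE 0.33, adjusted p = 0.0001), a 17.1-fold lower level on the TPM + 1 scale. Vwf, the von Willebrand factor of clotting, had 32.4, 70.2, 60.4 and 74.7 TPM in glands 133, 392, 417_3 and 517_3 and 3.70 to 14.3 TPM in tumors (-2.66, SE 0.38, adjusted p = 0.00148). Esm1, secreted by sprouting endothelium, went the other way, with 1.52, 2.90, 4.01 and 3.45 TPM in the same glands. It had 29.6, 14.4 and 7.82 TPM in carcinosarcomas 64, 567 and 897 and 7.65, 7.96 and 24.8 TPM in carcinomas 89, 273_5 and 3956, all above every gland (1.89, SE 0.43, adjusted p = 0.0134). Gpihbp1, which holds lipoprotein lipase on capillaries, and Nos3, the endothelial nitric oxide synthase, differed by -1.32 (adjusted p = 0.0656) and -0.98 (adjusted p = 0.128).

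No lymphatic gene was called in the 3 tested, by limma or at an unadjusted p under 0.05, which 32.6% of all genes had. Flt4, the receptor for Vegfc, had 1.55 to 2.54 TPM in glands and was highest in tumor 567 at 14.3 TPM, with 0.99 to 4.36 TPM in the other tumors (0.72, SE 0.47, adjusted p = 0.307). Lyve1, the hyaluronan receptor, had 2.18 to 4.91 TPM in glands and 0.80 to 10.03 TPM in tumors (0.12, adjusted p = 0.887). Prox1 stayed at or under 2.49 TPM in all libraries. Pdpn, which is also made by epithelial and stromal cells, had 255 and 285 TPM in tumors 567 and 897 and 23.7 to 65.1 TPM in the other 4 (1.42, SE 0.91, adjusted p = 0.305).

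Counted without a model, 3 of the 40 members tested were higher in every tumor than in every gland (Apln, Pgf and Esm1), where 7.39% of all genes tested were. Lower in every tumor were 8 members, Tek, Ptprb, Robo4, S1pr1, Adgrl4, Sox17, Cd300lg and Vwf, where 7.2% of all genes tested were. Apln, Ptprb, Adgrl4, Sox17, Cd300lg, Vwf and Esm1 reached the smallest exact p of 0.00476. This permutation p is unadjusted, was computed for members only, and needs tumors and glands without overlap. Of all genes tested, 14.6% had no overlap in either direction, beside 11 of the 40 members.

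These values were also fitted beside the endothelial and fat levels of the samples. Here and below, counts of members called in refits stand without the share of all genes called in the same refit. A change in such a count may therefore be that of the whole fit. The endothelial level did not overlap between tumors and glands, so a fit with it cannot separate that level from the group. With the mean log2(TPM + 1) of the 12 endothelial reference genes as a covariate, 7 members were called. Of these, Apln (2.34, adjusted p = 0.0464), Ptprb (-2.01, adjusted p = 0.0464) and Cd300lg (-3.36, adjusted p = 0.0058) were also called without it. The other 4 were Vegfc (3.47), Nrp2 (2.82), Cd34 (2.28) and Flt4 (2.27), all higher, with adjusted p of 0.0328, 0.0171, 0.0349 and 0.0162. Of the 12 members that lost their call, Esm1 (2.44, adjusted p = 0.0571) and Angpt1 (-1.93, adjusted p = 0.122) had larger differences than without the covariate. Vwf (-2.10, adjusted p = 0.0624), Sox17 (-1.85, adjusted p = 0.0625), Pgf (1.15, adjusted p = 0.475) and Adgrl4 (-1.10, adjusted p = 0.133) had smaller ones, still beyond 1 on the log2 scale. The others came closer to 0: Tek (-0.49), Kdr (-0.29), Erg (-0.26), S1pr1 (-0.24), Pecam1 (-0.21) and Robo4 (-0.19), with adjusted p from 0.439 to 0.766. With the mean of the adipocyte genes as covariate, 8 members were called, all 8 among the 15: Apln higher and Ptprb, S1pr1, Adgrl4, Pecam1, Sox17, Cd300lg and Vwf lower. Leaving out gland 417_3 gave 8 calls and leaving out gland 517_3 gave 9. Without the fat-rich glands 133 and 392, a choice made after the levels were seen, 9 members were called, and Apln (3.05), Cd300lg (-4.03), Sox17 (-3.16), Vwf (-2.90), Ptprb (-2.73) and Adgrl4 (-1.89) were among them. Without glands 417_3 and 517_3, chosen in the same way, 11 were called. Lost were Angpt1 (-0.95), Kdr (-1.38), Tek (-1.59), Robo4 (-1.31), S1pr1 (-1.20), Pecam1 (-0.83) and Erg (-1.07), with adjusted p from 0.0526 to 0.224, and gained were Vegfb (-2.39), Angpt2 (0.94) and Gpihbp1 (-1.86), with adjusted p from 0.00187 to 0.0495.

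**Figure D3:**
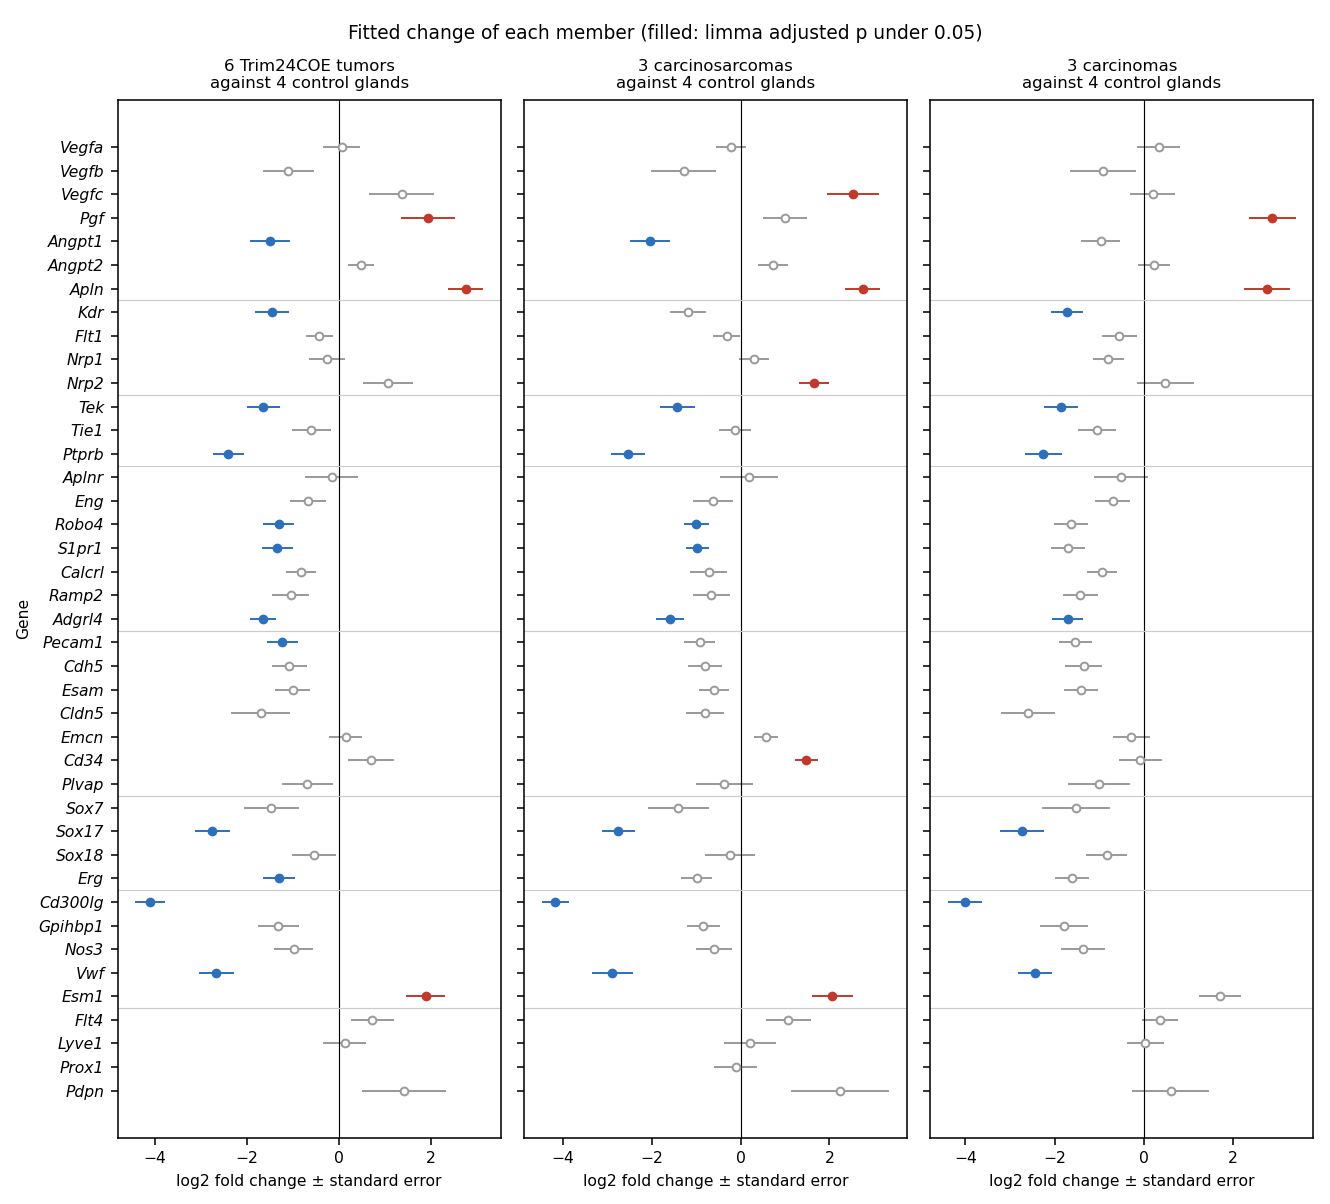
Fitted log2 fold change with its standard error for each member that was tested, in all 6 Trim24COE tumors, the 3 carcinosarcomas and the 3 carcinomas against the same 4 control glands. Filled points passed limma's adjusted p of 0.05 (red higher, blue lower), so that Cd300lg, Sox17, Vwf, Ptprb, Tek and Adgrl4 are blue and Apln red in all 3 panels, Vegfc, Nrp2 and Cd34 are red in the carcinosarcoma panel only, and Prox1 has no point where it was too low to test.

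In the 3 carcinosarcomas against the 4 glands, 5 members rose and 9 fell of 41 tested, where 23% of all 15287 genes were called, 9.83% as higher and 13.1% as lower. The 5 that rose were Vegfc (2.53, SE 0.58, adjusted p = 0.0185), Apln (2.75, adjusted p = 0.00328), Nrp2 (1.65, adjusted p = 0.0114), Cd34 (1.48, adjusted p = 0.00696) and Esm1 (2.06, adjusted p = 0.0171). Cd34, a sialomucin of endothelium and of stromal progenitor cells, had 106, 130.03 and 142 TPM in carcinosarcomas 64, 567 and 897 against 36.3 to 62.1 TPM in glands. Nrp2, a coreceptor for Vegfc and semaphorins, had 36.0, 53.1 and 28.2 TPM in these tumors against 8.98 to 17.5 TPM. The fibroblast genes, whose summed level was 2064 to 7967 TPM in carcinosarcomas and 610.2 to 1792 TPM in glands, moved with these values, and their part in them was not tested. The 9 that fell were Angpt1 (-2.04), Tek, Ptprb, Robo4, S1pr1, Adgrl4, Sox17 (-2.76), Cd300lg (-4.17) and Vwf (-2.88), with adjusted p from 0.000538 to 0.0422. Without tumor 64, 6 members were called, without the filter on low values 8, and with the endothelial covariate 2, Cd300lg (-3.45) lower and Flt4 (2.73) higher. In that last fit, differences that lost their call were as large or larger for Vegfc (3.73), Apln (2.90), Nrp2 (2.35), Cd34 (1.48) and Esm1 (2.60), with adjusted p from 0.0731 to 0.148. They were smaller for Ptprb (-2.03), Sox17 (-2.07), Vwf (-1.63), Angpt1 (-1.27), Adgrl4 (-1.01), S1pr1 (-0.47), Tek (-0.30) and Robo4 (-0.29), with adjusted p from 0.123 to 0.747. With the adipocyte covariate 13 members were called. Vegfc (1.64, adjusted p = 0.0706), Esm1 (1.62, adjusted p = 0.057), Tek (-1.38, adjusted p = 0.0682) and Robo4 (-0.94, adjusted p = 0.08) lost their call, and Pecam1 (-1.37), Plvap (-1.68) and Sox7 (-2.62) gained one, with adjusted p from 0.0197 to 0.0348.

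In the 3 carcinomas against the same glands, 2 members rose and 7 fell of 40 tested, where 3.5% of all 15479 genes were called, 1.58% as higher and 1.92% as lower. Pgf (2.88, SE 0.53, adjusted p = 0.0299) and Apln (2.76, SE 0.51, adjusted p = 0.0307) rose. Kdr (-1.72), Tek (-1.85), Ptprb (-2.25), Adgrl4 (-1.71), Sox17 (-2.73), Cd300lg (-4.01) and Vwf (-2.43) fell, with adjusted p from 0.0074 to 0.0438. Vegfc differed by 0.19 (SE 0.50, adjusted p = 0.873). These calls rested on few mice, since 1 to 5 members were called when any 1 mouse was left out, 1 without the filter on low values and 0 by limma with the endothelial covariate. In that last fit Pgf differed by 4.09, more than without the covariate, and Cd300lg by -2.24. Vwf (-1.41), Apln (1.10), Ptprb (-1.05), Adgrl4 (-0.81), Sox17 (-0.64), Kdr (-0.35) and Tek (-0.26) were closer to 0 than without it, and the adjusted p of the 9 ran from 0.377 to 0.982. With the adipocyte covariate all 9 kept their call and Pecam1 (-1.82, adjusted p = 0.0327) was added.

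Between the 2 tumor classes, limma called 0 of 40 members, and 6 had an unadjusted p under 0.05, where 0.698% of 14193 genes were called and 15% had such a p. Pgf was lower in carcinosarcomas than in carcinomas (-1.88, SE 0.32, adjusted p = 0.067) and Vegfc higher (2.34, SE 0.55, adjusted p = 0.156), without overlap for either but without passing the test. Without carcinoma 273_5, Pgf passed (-2.18, adjusted p = 0.0426). The other 4 at an unadjusted p under 0.05 were Angpt1 (-1.07), Nrp1 (1.10), Cldn5 (1.80) and Cd34 (1.56), with adjusted p from 0.253 to 0.311. Of the members called in both classes against glands, Apln (-0.02, SE 0.47), Sox17 (-0.03, SE 0.54) and Adgrl4 (0.12, SE 0.38) differed least between the classes.

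The non-TRIM24 tumors differed greatly among themselves. Against the glands, limma with a batch term called 0 of 41 members, and 7 had an unadjusted p under 0.05, where 0.107% of 16775 genes were called and 10.7% had such a p. These 7 were Pgf (2.96, SE 0.80, adjusted p = 0.264), Angpt1 (-1.68, adjusted p = 0.296), Apln (1.43), Ptprb (-1.46), S1pr1 (-1.36), Calcrl (-1.32) and Sox17 (-1.89). Pgf stood at 147, 20.9 and 95.0 TPM in tumors 219, FVB001 and FVB002, all above the glands, and Apln at 22.8, 6.85 and 18.7 TPM, with FVB001 close to gland 133. Angpt1 was at 0.76, 0.62 and 1.09 TPM, under every gland and every Trim24COE tumor, although the repeat libraries of gland 133 and tumor 3956 in the same batch also read lower than their first libraries, 5.17 against 8.65 TPM and 1.72 against 3.52 TPM. Without FVB001, Pgf passed (3.78, adjusted p = 0.0265). Without a batch term, over the first library of each mouse, 8 members were called, and here batch and group cannot be told apart. The share of all genes called in that fit is not given here.

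Cd300lg shows the spread of this group. It had 5.53 TPM in tumor 219, like the Trim24COE tumors, but 108 TPM in FVB001 and 56.8 TPM in FVB002. Adipoq had the same order in these tumors, at 3.31 TPM in tumor 219, 4315 TPM in FVB001 and 1525 TPM in FVB002. In the glands, however, Cd300lg kept a narrow range while Adipoq differed widely. A link between these genes was not tested. Esm1 was at 3.32, 1.26 and 2.38 TPM in tumors 219, FVB001 and FVB002, within or under the range of the glands. Carcinomas of Trim24COE mice against these tumors gave 0 of 41 members called by limma with the batch term and 3 with an unadjusted p under 0.05, where 0.0179% of 16775 genes were called and 17.7% had such a p. Those 3 were Nrp2 (1.77, SE 0.72, adjusted p = 0.24), Cd300lg (-2.76, SE 0.92, adjusted p = 0.189) and Esm1 (2.09, SE 0.66, adjusted p = 0.178). Nrp2 passed without carcinoma 273_5 (2.09, adjusted p = 0.0475), and Cd300lg without tumor 219 (-3.96, adjusted p = 0.00482).

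Set against each other, ligands and vessel genes gave different orders of the libraries. The mean log2(TPM + 1) of the 7 ligands was 3.68 to 4.11 in the glands, 4.20 to 4.52 in carcinosarcomas, 4.26 to 4.72 in carcinomas and 3.75 to 4.31 in non-TRIM24 tumors. That of the 30 blood vessel genes was 4.66 to 5.11 in glands, 3.63 to 4.72 in carcinosarcomas, 2.72 to 4.05 in carcinomas and 2.94 to 4.92 in non-TRIM24 tumors. The log mean counts low and high genes alike. The summed TPM of the ligands did overlap, at 152.2 to 283.5 in glands, 197.6 to 221.3 in carcinosarcomas, 181.1 to 360 in carcinomas and 242.6 to 298 in non-TRIM24 tumors. Ligand minus vessel level was -0.98 ± 0.17 (SD, n = 4) in glands, 0.27 ± 0.41 (n = 3) in carcinosarcomas, 0.98 ± 0.49 (n = 3) in carcinomas and -0.11 ± 1.01 (n = 3) in non-TRIM24 tumors. No Trim24COE tumor, the lowest at -0.20, reached the range of the glands, whose highest value was -0.78. The carcinosarcomas, with a highest value of 0.57, lay under the carcinomas, with a lowest value of 0.66, by less than the spread of either class. Of the non-TRIM24 tumors, FVB001 at -1.18 lay among the glands and tumor 219 at 0.82 among the carcinomas. The difference between the means of the 6 tumors and the 4 glands was 1.60, given as a description with no test. The repeat library of gland 133 read -0.10 against its first and that of tumor 3956 read 0.01 against its first.

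**Figure D4:**
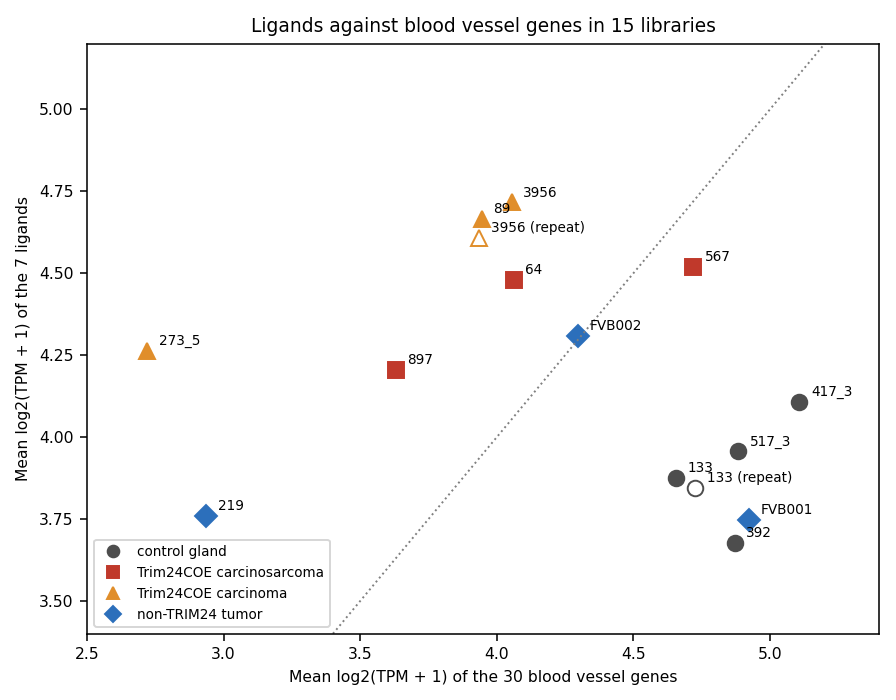
Mean log2(TPM + 1) of the 7 ligands against that of the 30 blood vessel genes, 1 point per library, labelled by mouse, with open symbols for repeat libraries and a dotted line where both are equal. The glands and FVB001 sit at the lower right, with vessel levels of 4.66 to 5.11 and ligand levels of 3.68 to 4.11, and the carcinomas at the left and top, with tumor 273_5 at the lowest vessel level, 2.72.

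Other genes of the angiogenic pathways were counted from a list of 44 genes that are not members. In the 6 Trim24COE tumors against glands, 2 of 41 tested rose and 4 fell, with a median difference of -0.22. Thus 14.6% of this list was called, less than the 17.1% of all genes tested. Of all genes, 7.96% were called as higher and 9.13% as lower, also for the counts of the further lists below. Thbs2, a matrix inhibitor of angiogenesis (2.90, adjusted p = 0.014), and Adm, the ligand of Calcrl with Ramp2 (1.33, adjusted p = 0.0235), rose. Epas1, a hypoxia factor (-2.67, adjusted p = 0.00123), Angptl4 (-2.25, adjusted p = 0.00305), Fgf1 (-3.28, adjusted p = 0.00324) and Hey1, a Notch target (-2.72, adjusted p = 0.0245), fell. The part of the fat level in these falls was not tested. Epas1 had 73.7 to 116 TPM in glands and 7.52 to 30.6 TPM in the 6 tumors. Of 12 tested genes of arteries, veins and capillaries, 9 fell and none rose, with a median of -2.74. The 5 with the smallest p were Btnl9 (-3.08), Cd36 (-5.23), Sema3g (-2.56), Aqp1 (-2.90) and Timp4 (-4.40). Cd36 and Timp4 are also made by fat cells, and Cd36 had 408 to 840 TPM in the 4 glands against 4.60 to 66.0 TPM in the 6 tumors. Among the 9 pericyte genes, Pdgfrb rose and Rgs5 and Notch3 fell, named here after their values were seen. Of the other lists, 5 of 12 endothelial reference genes, 2 of 11 adipocyte genes and 1 of 11 epithelial genes fell, and 7 of 9 macrophage and 2 of 7 fibroblast genes rose.

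For 23 of the 41 members a promoter sequence was in the RefSeq tables of build GRCm38.p6. Those of 2 members that rose, Apln and Esm1, and 2 that fell, Tek and Adgrl4, are shown so that the upstream sequence of opposite responders can be read side by side. Each is the 250 bases before the start of the gene, 5′ to 3′ on the strand of the gene. Capitals mark GGAA, the core bound by ETS factors such as Erg, and ACGTG, the core of hypoxia response elements, on either strand. Apln lies at chrX:48034854-48035103 (minus strand), Esm1 at chr13:113209409-113209658 (plus), Tek at chr4:94739039-94739288 (plus) and Adgrl4 at chr3:151437632-151437881 (plus).
Apln: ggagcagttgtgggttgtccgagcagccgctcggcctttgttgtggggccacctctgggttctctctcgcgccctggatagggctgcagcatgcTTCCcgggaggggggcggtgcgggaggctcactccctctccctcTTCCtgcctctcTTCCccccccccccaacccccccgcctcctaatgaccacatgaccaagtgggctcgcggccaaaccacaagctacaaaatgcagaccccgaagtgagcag
Esm1: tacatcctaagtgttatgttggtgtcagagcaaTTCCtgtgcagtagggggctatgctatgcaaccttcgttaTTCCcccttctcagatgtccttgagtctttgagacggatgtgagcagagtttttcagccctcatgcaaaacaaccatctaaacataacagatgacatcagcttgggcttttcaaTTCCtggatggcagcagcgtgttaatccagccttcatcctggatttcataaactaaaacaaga
Tek: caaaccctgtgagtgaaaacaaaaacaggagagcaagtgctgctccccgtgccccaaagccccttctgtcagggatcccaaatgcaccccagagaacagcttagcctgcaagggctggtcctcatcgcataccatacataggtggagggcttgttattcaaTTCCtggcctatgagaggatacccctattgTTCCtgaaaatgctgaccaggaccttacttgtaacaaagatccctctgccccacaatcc
Adgrl4: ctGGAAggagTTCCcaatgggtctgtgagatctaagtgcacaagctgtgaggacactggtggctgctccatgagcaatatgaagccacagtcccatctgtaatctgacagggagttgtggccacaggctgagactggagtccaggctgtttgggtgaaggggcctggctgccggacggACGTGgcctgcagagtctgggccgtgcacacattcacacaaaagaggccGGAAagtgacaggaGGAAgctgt

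GGAA occurred 3 times in the windows of Apln and Esm1, 2 times in Tek and 4 times in Adgrl4, and some copy of it was in 21 of the 23 members and in 94.2% of the 27025 genes with such a sequence. ACGTG was in 3 of the 23 members, Vegfa, Adgrl4 and Pdpn, and in 18.5% of all genes. Vegfa has 2 windows, and the match was only in that at chr17:46025164-46025413, which lies inside the gene. The Vegfa window at chr17:46032378-46032627 had 0 matches. The longer ETS type motifs ACCGGAAG, CAGGAAGT and ACAGGAAG, which contain GGAA, were in 2 of the 23, Calcrl and Emcn, and in 7.28% of all genes. These are letter matches, and none is a measured site.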

How the data were processed

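RNA-seq was deposited for 15 libraries of 13 mice as TPM, which the authors made, per their methods, with RSEM run on STAR alignments to GRCm38 and the GENCODE annotation. The submitters' processing notes also name TopHat and Cufflinks, and the role of each is not given in the sources used here. TPM hold no depth, so counting error is unknown and count tests were not used. Groups and classes came from the labels. TPM were fitted as log2(TPM + 1) with limma 3.58.1 in R 4.3.3 (eBayes with a variance trend, two-sided, Benjamini-Hochberg, threshold 0.05). Genes entered a fit if they reached 1 TPM in a number of fitted libraries equal to the mice of the smaller group. Fits within batch 1 held first libraries of the groups compared. For non-TRIM24 tumors, the 15 libraries entered one fit with batch as a term, estimated from gland 133 and tumor 3956, which have a library in each batch. The repeats entered that fit as independent libraries. Single genes were also compared by exact permutation in Python 3.11.15. The fits were tested on simulated data.

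The members, lists and tests were chosen with earlier results of these data known. All members could be named. Of the other angiogenic and the artery, vein and capillary genes, up to 5 per direction past the threshold with the smallest p were named, and of other lists at most 3; Adipoq was named as the fat marker after its values were seen. The GGAA motif was added after the data were seen. Alternatives changed the pseudocount (0.1), the filter (none, 5 TPM), the scaling (75th percentile, quantiles), the covariates, the variance trend, the libraries fitted and the mice left out.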

Additional observations from a re-analysis of the deposited data

Results flagged for a closer look

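Within the control glands and within the 6 Trim24COE tumors, 90 sets of values on the log2(TPM + 1) scale were searched for 1 library far from the rest. Of these sets, 5 stood out. That is near the rate of about 1 in 20 that chance gives, so the flags are listed as values only. Apln was high in gland 133 (6.29 TPM beside 1.97 to 2.38 TPM), a gap of 0.856 of the range of the 4 glands. Esam was high in gland 392 (89.3 TPM), a gap of 0.926 of that range. In tumor 273_5, Flt1 (7.83 TPM, a gap of 0.714 of the range of the 6 tumors) and S1pr1 (4.66 TPM, 0.65) were low. This carcinoma also had the lowest vessel level of the 13 mice, a level that includes Flt1 and S1pr1. Prox1 was high in tumor 567 at 2.49 TPM, a gap of 0.681, and that carcinosarcoma had the highest Flt4 and Lyve1 as well.

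All 41 members were searched, over each pair of tumor groups, for groups that lie on opposite sides of the glands. Nrp2 alone was found, and the share of all genes with this pattern was not computed. Nrp2 lay above all glands in the 3 carcinosarcomas and below all glands in the 3 non-TRIM24 tumors, which had 3.59, 8.04 and 7.26 TPM. The mean difference between these groups was 2.47 on the log2(TPM + 1) scale. That difference was not tested, and batch and group cannot be told apart in it.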

How the results depend on the processing

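No call of a member reversed its direction under any alternative. For all 6 tumors, 15 members were called, 7 with the endothelial covariate, 8 with the adipocyte covariate, 9 without glands 133 and 392 and 11, with 8 of the 15 among them, without glands 417_3 and 517_3 (alternatives chosen after seeing the data) and between 8 and 18 when 1 mouse was left out, the lowest without gland 417_3 and 9 without gland 517_3. Apln, Ptprb and Cd300lg kept their call in all 21 alternatives. For carcinosarcomas (14), 8 were called without the filter, 2 with the endothelial covariate and 6 to 12 with 1 mouse left out. For carcinomas (9), 1 was called without the filter, 14 with scaling to the 75th percentile, 14 with quantile normalization, 14 with all 10 libraries of batch 1 in one fit, 0 with the endothelial covariate, 4 without glands 417_3 and 517_3, and 1 to 5 with 1 mouse left out. Between the classes, 0 to 1 were called, the 1 being Pgf without carcinoma 273_5. For non-TRIM24 tumors against glands (0), 8 were called without the batch term, 1 (Angpt1) with the repeats as correlated libraries and 0 to 1 (Pgf) with 1 mouse left out, without FVB001. For carcinomas against non-TRIM24 tumors (0), 3 were called without the batch term and 0 to 1 with 1 mouse left out: Nrp2 without carcinoma 273_5 and Cd300lg without tumor 219. These counts stand without the share of all genes called in the same fit, and the cause of these moves was not tested. Quantile normalization moved the median of all genes in carcinosarcomas from -0.12 to 0.04. The ligand minus vessel difference of 1.60 ranged from 1.41 to 2.01. No paired analysis was possible because replicate numbers only name mice and no source ties mice across groups. Depth is unknown in TPM, so its limit on low genes such as Prox1 cannot be given.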
